A study of Mus musculus with 2 samples.

Results

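Immune checkpoint ligands are surface proteins with which a tumour cell restrains T cells, natural killer cells or macrophages, and 6 such genes were chosen by symbol for B16 cells. They are Cd274, Pdcd1lg2, Cd47, Pvr, Cd276 and Nt5e. Of these 6 genes, 5 were found among the 18224 listed identifiers and Nt5e was not analysed here. B16 is a pigmented melanoma cell line of mouse that is widely grafted into mice in work on tumour immunity. RNA came from B16 cells treated with LY500307 and from control-treated B16 cells, with 1 library in each group. LY500307, also called erteberel, is a synthetic compound that activates estrogen receptor beta in preference to the alpha receptor. The sources used here state no dose or duration, do not say what the control cells were given, and do not say how many cultures a library stands for.

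With 1 library a group there is no replicate to set a difference against, and the values below are descriptions of these libraries. The LY500307 library held 14698853 reads and the control library 16704950 reads, both recovered from the deposited values, which are read counts multiplied by 1 factor per library. Levels are given as CPM, read counts over library size on the deposited scaling, in which a read is worth 0.0676 CPM in the LY500307 library and 0.0603 CPM in the control library. Intervals are exact 95% intervals that cover counting error only, not variation between cultures. Reads copied by PCR are not independent molecules, so the intervals may be too narrow even for counting error. In bulk RNA, fewer cells that express a gene and less RNA per cell cannot be told apart. All 10 melanoma markers examined were measured, from 32.4 to 3697 CPM per kb of transcript, with Tyrp1 and Pmel, both melanosome proteins, the most abundant in CPM. Of 27 leukocyte markers 6 were analysed here, and together they summed to 5.34 CPM in the LY500307 library and 4.22 CPM in the control library.

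CD274, also named PD-L1, and PDCD1LG2, also named PD-L2, both bind PD-1 on T cells and dampen their activation. CD47 binds SIRP-alpha on macrophages and inhibits engulfment. PVR, also called CD155, binds the inhibitory receptors TIGIT and CD96 and the activating receptor CD226. CD276, also called B7-H3, is a B7 family protein with inhibitory activity toward T cells reported in several settings, and NT5E, also called CD73, makes adenosine outside the cell from AMP. Interferon gamma from T cells is the classical inducer of PD-L1, acting through JAK1, JAK2 and IRF1, and cultured tumour cells often show little PD-L1 without it.

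The promoters of the ligand genes differ in CpG content, which is shown because the genes also differ widely in level. The windows run from 250 bases before to 50 bases after the transcription start, are 300 bases long, come from RefSeq on GRCm38.p6 and are written 5′ to 3′ with CpG dinucleotides in capitals. They lie at chr19:29367188-29367487 (plus strand) for Cd274, chr19:29410669-29410968 (plus strand) for Pdcd1lg2, chr16:49855404-49855703 (plus strand) for Cd47 and chr9:58554984-58555283 (minus strand) for Cd276.
Cd274: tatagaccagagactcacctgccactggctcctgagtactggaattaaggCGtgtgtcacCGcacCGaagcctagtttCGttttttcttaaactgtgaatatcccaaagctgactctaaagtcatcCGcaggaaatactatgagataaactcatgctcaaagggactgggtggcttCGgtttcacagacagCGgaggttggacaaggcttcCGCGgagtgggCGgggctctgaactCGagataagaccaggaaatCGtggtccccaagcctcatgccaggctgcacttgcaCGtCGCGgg
Pdcd1lg2: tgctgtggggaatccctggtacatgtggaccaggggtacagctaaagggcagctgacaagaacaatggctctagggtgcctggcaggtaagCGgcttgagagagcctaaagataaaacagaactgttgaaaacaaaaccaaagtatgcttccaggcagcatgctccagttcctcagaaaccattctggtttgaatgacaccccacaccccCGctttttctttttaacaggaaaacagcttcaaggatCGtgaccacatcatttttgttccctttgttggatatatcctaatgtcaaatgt
Cd47: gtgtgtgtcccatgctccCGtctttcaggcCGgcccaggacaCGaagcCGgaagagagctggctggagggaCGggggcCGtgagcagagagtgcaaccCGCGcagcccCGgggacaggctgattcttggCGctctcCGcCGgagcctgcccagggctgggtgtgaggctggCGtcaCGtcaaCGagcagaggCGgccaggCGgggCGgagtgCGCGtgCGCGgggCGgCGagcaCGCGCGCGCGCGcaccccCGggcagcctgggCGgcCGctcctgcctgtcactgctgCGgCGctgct
Cd276: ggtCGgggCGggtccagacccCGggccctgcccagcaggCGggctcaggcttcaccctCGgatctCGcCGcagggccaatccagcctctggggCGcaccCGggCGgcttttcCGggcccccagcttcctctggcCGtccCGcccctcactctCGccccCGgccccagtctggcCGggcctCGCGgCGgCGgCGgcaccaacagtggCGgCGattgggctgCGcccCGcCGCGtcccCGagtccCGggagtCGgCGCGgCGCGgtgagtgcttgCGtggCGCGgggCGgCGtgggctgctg

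The Pdcd1lg2 window held 3 CpG dinucleotides, an observed over expected ratio of 0.189. Its neighbour on chromosome 19, Cd274, held 15, with a ratio of 0.722. The windows of Cd47 and Cd276 held 35 and 39, with ratios of 0.862 and 0.848. Over all listed genes with a window, 573 of 1419 genes (40.4%) with a ratio under 0.3 reached a mean of 1 CPM. The share was 70.4% (1651 of 2346 genes) for ratios from 0.3 up to 0.6. For ratios of 0.6 and above it was 89.7% (6793 of 7573 genes). Pdcd1lg2, which did not reach this minimum, belongs to the CpG-poor class, and Cd274, Cd47 and Cd276, which did, to the CpG-rich class. Windows were matched for 5 of the 6 ligand genes, all but Pvr, the ligand gene with the highest CPM. The Nt5e window had a ratio of 0.608, in the CpG-rich class, with no level to set beside it here. Whether CpG content bears on the level of the ligand genes was not tested.

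**Figure D1:**
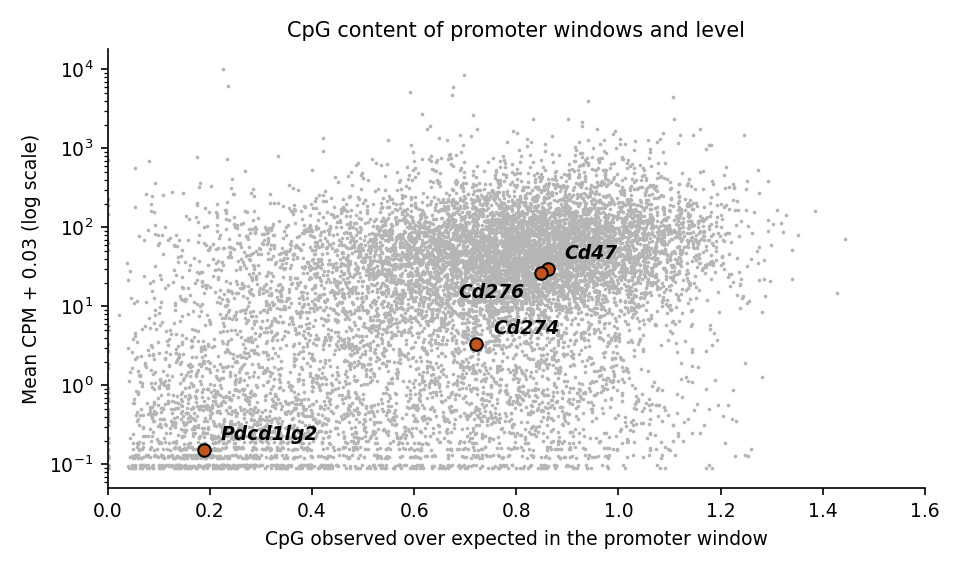
Mean level of both libraries (CPM + 0.03, log scale) against the CpG observed over expected ratio of the RefSeq promoter window, for listed genes (grey) and 4 ligand genes (orange). Pdcd1lg2 lies at the CpG-poor, low end (ratio 0.189), and Cd274 at 3.31 CPM lies below Cd47 and Cd276 in level at a ratio of 0.722.

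Few of the motifs searched occurred in these windows. Both strands were searched for the interferon-stimulated response core (GAAA repeated after any 2 bases), the STAT site TTCNNNGAA and the full estrogen response element (GGTCA, any 3 bases, TGACC). The shorter motif AGGTCA, a single arm of an estrogen response element, was searched too. It can overlap the full element and is not by itself a full element. Also searched were the AP-1 site TGANTCA, the E-box CACGTG, the hypoxia core ACGTG, which the E-box contains, the GC box GGGCGG and the TATA box TATAAA. The Cd274 window held a GC box and a hypoxia core, the Cd276 window 4 GC boxes, and the Cd47 window shown 3 GC boxes and a hypoxia core. None of these motifs was in the Pdcd1lg2 window. Of all 32851 windows, 35.7% held a GC box, 19.6% a hypoxia core, 3.44% the interferon-stimulated core and 8.30% the STAT site. The single arm AGGTCA was in 16.3% of windows and the full estrogen element in 0.0700%. Of the other motifs, 7.81% of windows held the AP-1 site, 7.15% the E-box and 13.6% the TATA box.

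Which ligands these cells express was the first comparison. Of the 5 analysed genes, 4 had a mean of at least 1 CPM and are called measured, as are 12243 genes in all. Pvr had the highest CPM, and Cd47 and Cd276 were of similar size, whereas Cd274 was low and Pdcd1lg2 had almost no reads. Levels were compared between genes per kb of the longest annotated transcript. On that scale Pvr averaged 13.0 CPM per kb over both libraries, Cd276 7.32, Cd47 5.62 and Cd274 0.915. These levels stood at the 58.1st percentile of measured genes for Pvr, the 42.5th for Cd276, the 35.9th for Cd47 and the 8.08th for Cd274. By this length Pvr was therefore the only one of the 4 above the middle of the measured genes, whose median was 9.65 CPM per kb. With the merged exons of all transcripts as length Pvr averaged 6.15, and its place among measured genes was not computed.

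The order of the upper 3 genes depended on the length used. In the LY500307 library Cd276 was at 6.85 CPM per kb (6.16 to 7.58) and Cd47 at 5.61 (5.10 to 6.16), so their intervals just overlapped. In the control library Cd276 was at 7.80 (7.10 to 8.54) and Cd47 at 5.63 (5.14 to 6.15), which do not overlap. With the merged exons of all transcripts as length, Pvr came to 6.99 (6.45 to 7.55) in the LY500307 library, overlapping Cd276 at 6.74 (6.07 to 7.47). In the control library Pvr then came to 5.31 (4.87 to 5.77), below Cd276 at 7.68 (6.997 to 8.41). Cd274 was lowest of the 4 with either length.

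Per kb of transcript, Cd274 was close in level to genes typical of other cells. A list of receptors of these ligands and related checkpoint receptors of lymphocytes and myeloid cells held 21 genes, of which 6 were analysed here. These reached at most 0.759 CPM per kb, below the 0.915 of Cd274. The list leaves out Sirpa, the CD47 receptor, which averaged 68.3 CPM per kb and is described below with CD47. Of the 6 leukocyte markers analysed, 3 stood at or above Cd274, up to 1.16 CPM per kb. In CPM, without the length, Cd274 averaged 3.31 and none of these markers exceeded 1.89. Cd68, a lysosomal protein of macrophages, had 20 reads in the LY500307 library and 25 in the control library. Coro1a, an actin regulator of leukocytes, had 38 reads in the LY500307 library and 20 in the control library. Havcr2 and Tnfrsf4, checkpoint and costimulatory receptors of T cells, averaged 1.98 and 0.827 CPM. The part of other cells in the Cd274 reads was not tested.

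**Figure D2:**
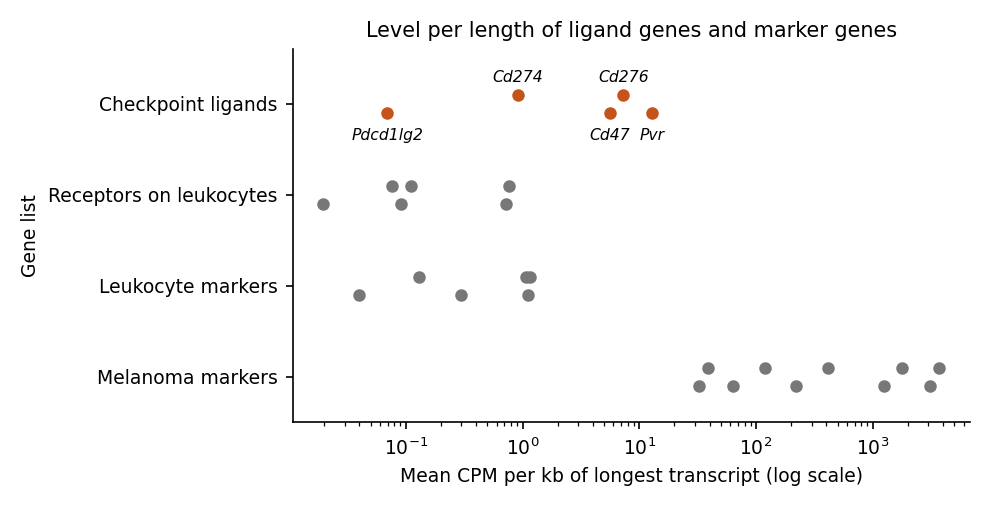
Mean CPM per kb of the longest transcript over both libraries (log scale) for the 5 analysed ligand genes, 6 checkpoint receptor genes, 6 leukocyte markers and 10 melanoma markers; each point is a gene. Cd274 (0.915) lies among the upper leukocyte markers, while Cd47, Cd276 and Pvr (5.62 to 13.0) lie above all of them and below the melanoma markers. Sirpa, the CD47 receptor, is not among the receptor genes drawn.

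The second comparison asked how the ligand genes differ with LY500307. The measure was log2 of the CPM plus 1 in the LY500307 library over the same in the control library. In the LY500307 library 0.253% of all measured genes were higher by 2-fold or more and 0.123% were lower by as much, 0.376% in all, and none of the 4 measured ligand genes reached 2-fold. The counting interval of the ratio of reads lay above 1 for 17.2% of all measured genes and below 1 for 19.2%. Among the ligand genes it lay above 1 for Pvr and below 1 for none, which is 1 of 4 and close to the background share. The median log2 fold of the 4 genes was -0.002, against -0.007 over all measured genes.

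**Figure D3:**
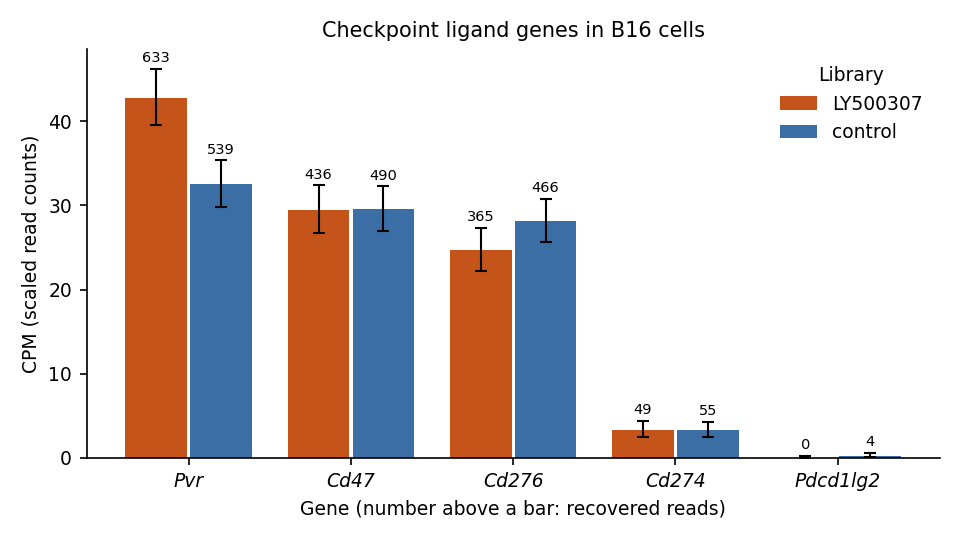
Level in CPM of each analysed ligand gene in the LY500307 library (orange, left) and the control library (blue, right), 1 library each, with exact 95% counting intervals and the recovered reads above each bar. Pvr was higher in the LY500307 library with intervals that do not overlap, and the other genes have overlapping intervals.

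Pvr was the ligand gene with the largest difference. It had 633 reads and 42.8 CPM in the LY500307 library, against 539 reads and 32.5 CPM in the control library. The ratio of reads was 1.32 (1.17 to 1.48) and the log2 fold 0.39. Of the 2751 measured genes with a mean CPM within 1.5-fold of Pvr, 97.6% had a lower log2 fold. The 5th and 95th percentiles of those genes were -0.30 and 0.30, so Pvr lay outside this range. A processed pseudogene that overlaps Pvr on the other strand, Gm16184, had 12 reads in the LY500307 library and 9 in the control library, far fewer than Pvr.

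Cd276 had a difference in the other direction that counting error could cover. It had 365 reads and 24.7 CPM in the LY500307 library, against 466 reads and 28.1 CPM in the control library. The ratio was 0.878 (0.764 to 1.01) and the log2 fold -0.18. Among 2447 genes of about the same level 16.9% had a lower log2 fold, so a difference of this size was common.

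Cd47 was nearly equal. It had 436 reads and 29.5 CPM in the LY500307 library, against 490 reads and 29.5 CPM in the control library. The ratio was 0.998 (0.875 to 1.14), so ratios above 1.14 or below 0.875 lie outside what counting error alone allows. The PD-L1 gene Cd274 was also nearly equal, but on few reads. It had 49 reads and 3.31 CPM in the LY500307 library, against 55 reads and 3.31 CPM in the control library. The ratio was 0.999 (0.665 to 1.495), and a difference smaller than about 1.5-fold was not detectable at this depth.

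Pdcd1lg2, the gene of PD-L2, had 0 reads in the LY500307 library and 4 in the control library. A count of 0 allows up to 3 reads, or 0.203 CPM, and the control level was 0.241 CPM. The exact interval of the LY500307 level reached 0.249 CPM, above the control level, and the upper end of the ratio was 1.70, so this depth could not show a difference. A listed antisense gene that overlaps Pdcd1lg2, A930007I19Rik, had 34 reads in the LY500307 library and 21 in the control library. The overlap is one of whole gene spans, and shared exons were not checked. No source used here states whether counting used strand, so reads in any shared part could have been assigned to either gene.

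**Figure D4:**
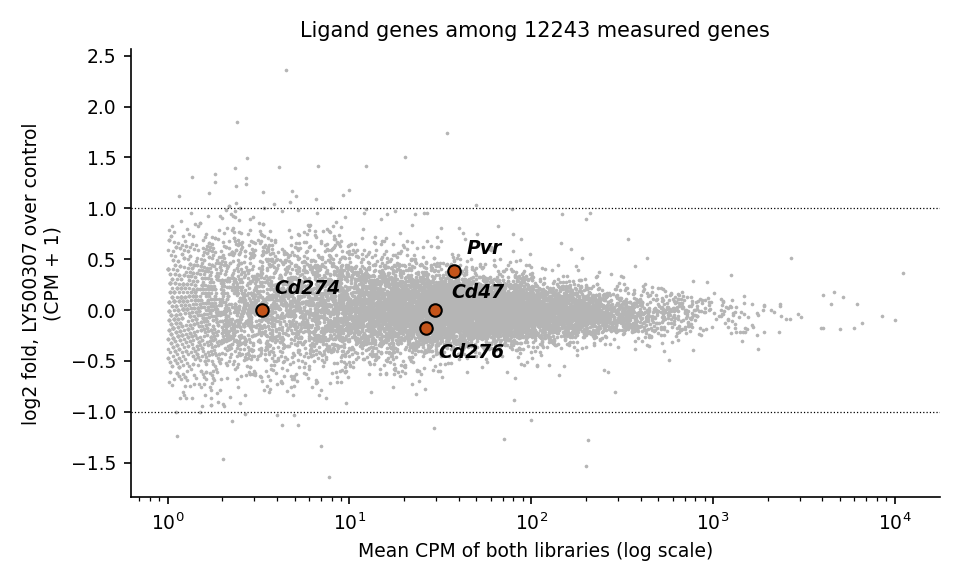
log2 fold on the CPM + 1 scale, LY500307 over control, against mean CPM (log scale) for 12243 measured genes (grey) and the 4 measured ligand genes (orange); dotted lines mark 2-fold. Cd47 and Cd274 lie at the middle of genes of their level, Cd276 below it and Pvr (0.39) toward the upper edge.

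Genes with the most similar pair of levels were found by Euclidean distance of log2(CPM + 1) over the 2 libraries, among measured protein-coding genes. Those nearest to Pvr were Ppip5k1, an inositol phosphate kinase, and Itga5, an integrin subunit, at distances of 0.007 and 0.018. Nearest to Cd276 were Odr4 and Atg12, to Cd47 Gps2 and Rfx1, and to Cd274 Lipt1 and Eid2b, at distances of 0.004 to 0.047. With 2 libraries many genes lie equally near, and the distance describes level as much as difference.

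The genes through which interferon induces PD-L1 and PD-L2 were mostly close in the libraries. Of 18 listed genes 17 were measured, and none of these was past 2-fold. The interval was above 1 for 2 of the 17 and below 1 for 1, where the shares over all measured genes were 17.2% and 19.2%. Their median log2 fold was 0.00089, and at most 0.03 under the alternatives run. Jak2 and Jak1, the kinases bound to the interferon gamma receptor, were the 2 with intervals above 1. Jak2 was at 40.1 CPM in the LY500307 library and 32.5 in the control library, with a log2 fold of 0.29, and Jak1 had a log2 fold of 0.11. The exception downward was Stat2, a transcription factor of type I interferon signalling, at 7.23 CPM in the LY500307 library and 10.7 in the control library (log2 fold -0.50). Irf1, the factor that acts directly on Cd274, had a log2 fold of 0.17, and the feedback inhibitor Socs1 0.20, both with intervals that include 1. The phosphatase gene Ptpn11 was the most abundant of the list and had a log2 fold of -0.01.

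Other transcriptional regulators of Cd274 had small differences. Of 24 genes 22 were measured, with a median log2 fold of 0.01 that reached 0.04 under another scaling. The interval was above 1 for 4 of the 22 and below 1 for 5, where the shares over all measured genes were 17.2% and 19.2%. Jun, a subunit of AP-1, had a log2 fold of 0.31, and Irf2bp2, a corepressor of IRF2, 0.25. A transcript of another listed gene, Gm26759, matched Irf2bp2 in sequence by the rule given under processing. Ezh2, the methyltransferase of Polycomb repressive complex 2, was at -0.18, and Mitf, the melanocyte lineage factor and the most abundant of the list, at -0.11. Myc, at 51.0 CPM in the LY500307 library and 49.6 in the control library, had a log2 fold of 0.04 with an interval that includes 1.

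Genes for the stability and traffic of the PD-L1 protein were all measured, 27 of 27. Intervals lay above 1 for 3 and below 1 for 6, where the shares over all measured genes were 17.2% and 19.2%. Their median log2 fold was -0.01, and 0.005 and 0.009 under 2 other scalings, of opposite sign. Cmtm6, a membrane protein that keeps PD-L1 from degradation, had 400 reads in the LY500307 library and 464 in the control library, with a log2 fold of -0.05 and an interval that includes 1. B3gnt3, a glycosyltransferase, was at 5.68 CPM in the LY500307 library and 3.86 in the control library (log2 fold 0.46). Ccnd1, the cyclin partner of CDK4, was at 202.4 CPM in the LY500307 library and 150.01 in the control library (0.43). A transcript of another listed gene, LTO1, matched Ccnd1 in sequence by the rule given under processing, and reads could be assigned to it. Btrc, the substrate receptor of a ubiquitin ligase, had a log2 fold of -0.23, and Stt3b, a catalytic subunit of oligosaccharyltransferase and the most abundant of the list, -0.13.

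Around CD47, the receptor, the modifying enzyme and the binding partners were examined. Of 13 genes 11 were measured, and the interval was above 1 for 4 of these and below 1 for 1, where the shares over all measured genes were 17.2% and 19.2%. Their median log2 fold was 0.14, and 0.09 among genes whose mean reached 5 CPM. Sirpa, the CD47 receptor, was itself well expressed in these melanoma cells, with 266.1 CPM in the LY500307 library and 278.1 in the control library, and a log2 fold of -0.06, the only interval below 1 in the list. Qpctl, the glutaminyl cyclase that modifies CD47 so that it binds SIRP-alpha, had 161 reads in the LY500307 library and 152 in the control library. Its log2 fold was 0.23, that of its relative Qpct 0.30 and that of Thbs1, a secreted CD47 ligand, -0.05, each with an interval that includes 1. Itgb3, the integrin beta chain that associates with CD47, was at 55.0 CPM in the LY500307 library and 38.6 in the control library, with a log2 fold of 0.50 and a log2 ratio of reads between 0.36 and 0.66 within counting error. Calr, the calreticulin gene, whose surface protein promotes engulfment, was the most abundant of the list and had a log2 fold of 0.04.

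Other genes of the nectin family, to which PVR belongs, differed little between the libraries. Of 10 genes 7 were analysed here and 5 measured, with a median log2 fold of -0.06, or -0.03 under another scaling. The interval was above 1 for none of the 5 and below 1 for 1, where the shares over all measured genes were 17.2% and 19.2%. Nectin2, the other ligand of TIGIT and CD226 in this family, was at 61.5 CPM in the LY500307 library and 65.0 in the control library (log2 fold -0.08). Nectin3, a cell adhesion molecule that binds PVR, had a log2 fold of 0.09, and both have intervals that include 1. Afdn, the adaptor that ties nectins to actin and the most abundant of the list, was at -0.13 with an interval below 1. Whether Pvr differs from these genes was not tested.

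**Figure D5:**
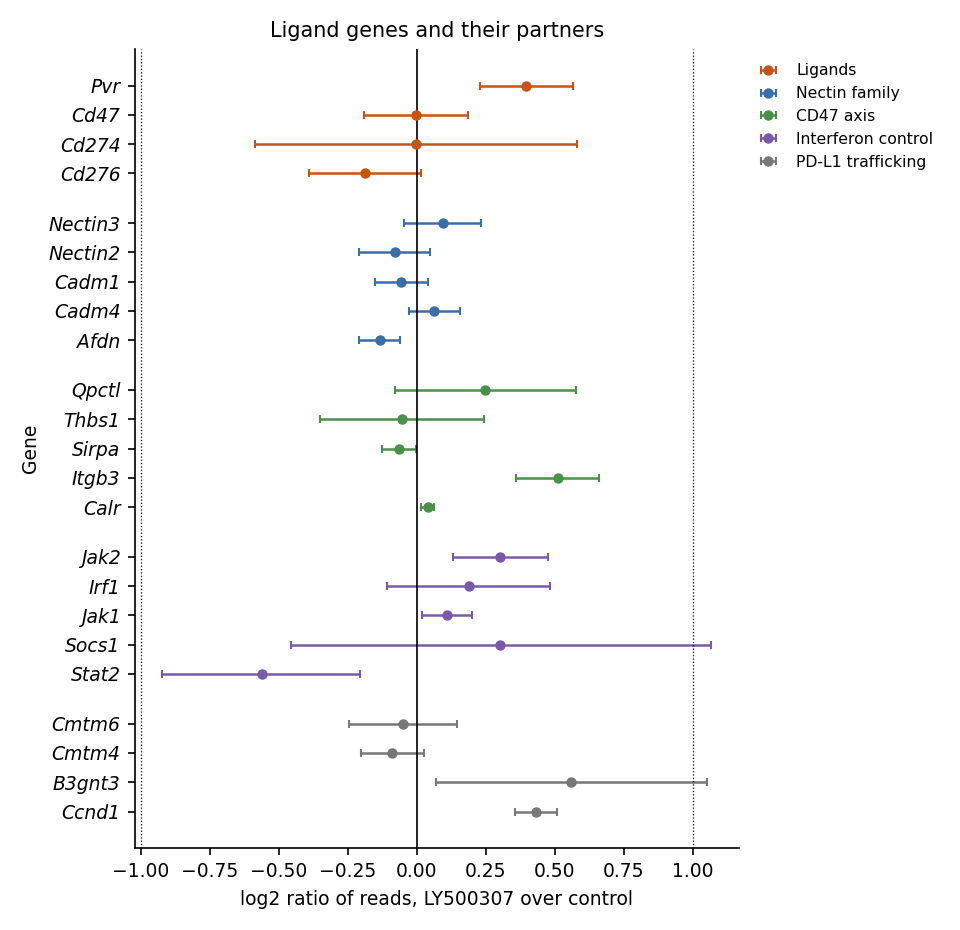
log2 ratio of reads, LY500307 over control, with exact 95% counting intervals for the 4 measured ligand genes and genes of their families and pathways; the solid line marks equal and the dotted lines 2-fold. Cadm1, Cadm4 and Cmtm4 were added for the display after their values were seen. The intervals of Pvr, Itgb3, Jak2, Jak1, B3gnt3, Ccnd1 and Calr lie right of equal, and those of Stat2, Afdn and Sirpa left of it. Not all genes of each list are drawn. Of the PD-L1 stability and traffic genes, Btrc and Stt3b, with intervals below 1, are left out. In that whole list intervals lay above 1 for 3 genes and below 1 for 6.

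Of 14 other ligands of the B7, butyrophilin and TNF families 4 were analysed here and 2 were measured, both with intervals below 1. The share below 1 over all measured genes was 19.2%, and 2 genes are too few to set against it. Icosl, the ligand of the costimulatory receptor ICOS, had 13 reads in the LY500307 library and 43 in the control library. Its ratio of reads was 0.339 (0.167 to 0.642), and its log2 fold was -0.93 with the pseudocount, short of 2-fold by the rule. Tnfsf9, also called 4-1BB ligand, had 98 reads in the LY500307 library and 147 in the control library (log2 fold -0.37). Both are costimulatory and not inhibitory proteins. Cd80 and Cd86 were not analysed here.

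For the adenosine pathway, in which NT5E makes adenosine, 18 of 28 other genes were analysed here and 15 were measured. Intervals lay above 1 for 7 and below 1 for 4, where the shares over all measured genes were 17.2% and 19.2%. The median log2 fold was 0.13, and 0.06 with a pseudocount of 5 CPM. Entpd1, the CD39 enzyme that makes AMP from ATP, was near the detection limit with 1 read in each library. The adenosine receptors Adora2a and Adora2b were also low, with 15 and 4 reads in the LY500307 library and 12 and 8 in the control library. Ak1, an adenylate kinase, was at 35.8 CPM in the LY500307 library and 18.0 in the control library, a ratio of 1.99 (1.73 to 2.31) and a log2 fold of 0.96. Ada, the adenosine deaminase gene, was at 9.19 CPM in the LY500307 library and 5.54 in the control library (log2 fold 0.64). Enpp1, a phosphodiesterase that also makes AMP outside the cell, was at 0.53 on 53 and 36 reads in the LY500307 and control libraries, and Enpp2, the most abundant of the list, which makes lysophosphatidic acid, at 0.42.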

How the data were processed

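The libraries were made from total RNA depleted of ribosomal RNA with a stranded kit, per the labels' protocols. CASAVA 1.8, Bowtie2 and build mm9 are named, per the submitters' processing notes. Each deposited value is a signal for a gene. The unit, counting tool, annotation and scaling are not stated in the sources used here. They are read counts times 1 factor per library, since 99.9% of nonzero values in each library were whole multiples of 1 step within 1% of a read. A gene with no read is listed near 0 and was set to 0. CPM was the deposited value over the average of the library totals.

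Symbols were found for 18177 of 18224 identifiers, and identifiers that share a symbol were summed. Folds used a pseudocount of 1 CPM and genes whose mean reached 1 CPM. There is no test between treatments with 1 library a group. Ratios of recovered reads carry exact Clopper-Pearson intervals at 95%, and levels exact Poisson intervals. Lengths, biotypes and overlaps are those of GENCODE M21, built on another assembly. A sequence match to another gene needed 95% identity over 100 bases or more and 50% or more of the shorter transcript (blastn 2.17.0). Both strands were searched and genes that overlap in place were kept, so a match need not be a copy. None was found for the ligand genes. A binomial test (exact, Benjamini-Hochberg adjusted at 0.05) on recovered reads compares libraries, not treatments, and called 3189 of 12243 genes, Pvr among them.

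Named genes were the ligands, direct partners, the 3 largest absolute folds and the highest mean of each pathway list, the 2 highest means of receptor and marker lists, and the 2 nearest genes of each ligand. One gene that this rule names is not reported here. The members and lists were chosen with earlier results of these data known. Calculations were tested on simulated data. Python 3.11.15, numpy 2.4.6, pandas 2.3.3, scipy 1.17.1 and matplotlib 3.10.9 were used.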

Additional observations from a re-analysis of the deposited data

How the results depend on the processing

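The log2 folds of the 4 measured ligand genes moved little under 2 other pseudocounts and 4 other scalings. They ranged from 0.35 to 0.41 for Pvr, from -0.19 to -0.16 for Cd276, from -0.003 to 0.019 for Cd47 and from -0.001 to 0.017 for Cd274, the last 2 with either sign close to 0. The interval of the ratio stayed above 1 for Pvr and included 1 for the other 3 under each scaling. The other scalings raised the log2 ratio of reads by 0.014 to 0.024, and folds with a pseudocount by less where counts are low. With a minimum mean of 5 CPM 3 ligand genes were measured, without Cd274, and with no minimum 5 were, against 4 in the report. Level per kb with merged exons was 6.15 for Pvr and 4.70 for Cd47.

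Counts over all genes depended on the settings. With a pseudocount of 0.1 CPM 109 genes were at least 2-fold higher and 71 lower, with one of 5 CPM 4 and 6, and with a minimum of 5 CPM 10 and 8. At a threshold of 1.5-fold 275 were higher and 170 lower, where the main rule gave 31 and 15. The exact binomial test called 3189 genes, against 4457 with an interval clear of 1. Of the list medians, that of the other inhibitory ligands turned sign with a minimum of 5 CPM and that of PD-L1 stability genes under 2 scalings. No paired analysis was possible because each group holds 1 library, and no replicate could be left out. Depth limits Cd274 and Pdcd1lg2 most.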

Other observations

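Among other inhibitory ligands, Lgals3 and Lgals9 had higher counts in the LY500307 library and Lgals1 did not. Of 18 such genes 13 were analysed here and 9 measured. The interval was above 1 for 3 of them and below 1 for 2, where the shares over all measured genes were 17.2% and 19.2%. Their median log2 fold was 0.06, and it turned to -0.04 among genes whose mean reached 5 CPM. Lgals3, galectin 3, was at 37.9 CPM in the LY500307 library and 22.6 in the control library, a ratio of reads of 1.68 (1.47 to 1.92). Lgals9, galectin 9, a ligand of the T cell receptor TIM-3, was at 17.0 CPM in the LY500307 library and 10.4 in the control library, a ratio of 1.64 (1.35 to 2.01). Lgals1, the most abundant of the list, was at 555.3 CPM in the LY500307 library and 574.1 in the control library, with a log2 fold of -0.05. Serpinb9, an inhibitor of granzyme B, had 61 reads in the LY500307 library and 42 in the control library, with a log2 fold of 0.54.

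Of 9 ligands of the activating receptor NKG2D 4 were analysed here and 2 measured. Raet1d had 148 reads in the LY500307 library and 90 in the control library, a log2 fold of 0.78, and Raet1e had 18 reads in the LY500307 library and 20 in the control library, a log2 fold of 0.007. The transcripts of Raet1d and Raet1e are near-identical, and the division of reads between them is uncertain. Col1a2 and Pdgfrb, the most abundant genes of a list of fibroblast, endothelial, keratinocyte and erythroid markers, were at 3.11 and 5.88 CPM in the LY500307 library and 4.82 and 4.88 CPM in the control library.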
